A study of Mus musculus with 6 samples.

Results

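The genes described here encode the CD3 chains and the first kinases and adaptors that act below the T-cell receptor. They are Cd3d, Cd3e, Cd3g and Cd247, the kinase genes Lck and Zap70, and the adaptor genes Lat, Lcp2 and Grap2. They were taken by gene symbol from the deposited annotation, which gave 9 genes with 1 probe set each, out of 20473 genes with a single symbol on the array. Expression was measured on 6 Affymetrix arrays in a mouse line of pre-pro-B progenitors that lacks Ebf1 (Ebf1-/-), kept over OP9 stroma in medium with 10 ng/ml of each of 3 cytokines (IL-7, flt3-ligand, SCF). All groups carry the Ebf1 deletion. Control cells received the control virus MigR1, EBF1 cells the MigY-EBF1 virus and Pax5 cells the MigR-Pax5 virus, and sorted cells gave RNA at 24 hours, on 2 arrays per group. The line stands for 1 source of cells, expression of the factors is driven by a retrovirus, and no label says that the arrays of a group came from separate transductions. The p-values thus rest on a spread between arrays that may be technical only.

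In T cells the CD3 delta, epsilon and gamma chains and the zeta chain (Cd247) carry the receptor to the surface and hold the tyrosine motifs, called ITAMs, that signal for it. LCK phosphorylates the ITAMs, ZAP70 docks on them, and ZAP70 then phosphorylates LAT and SLP-76 (encoded by Lcp2), which GADS (encoded by Grap2) joins into 1 complex. B-lineage cells use related parts: CD79 chains, SYK in place of ZAP70, and BLNK in place of SLP-76. EBF1 and Pax5 are the factors that specify the B lineage and commit cells to it, and the series asked which genes each of them induces.

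The deposited values are log2 RMA values, a scale on which a difference of 1 is a 2-fold change. A level on 1 probe set cannot be set against the level on another, so the place of each probe set among the 28350 of its array is given as a percentile. Group differences were tested with limma in 1 model of all 6 arrays, with Benjamini-Hochberg adjustment over the 15295 genes that lay above the 30th percentile on at least 2 arrays, and called at an adjusted p of 0.05. Medians over all probe sets lay between 4.06 and 4.17 on the 6 arrays, and duplicate arrays differed with an SD over genes of 0.152 in Control, 0.161 in EBF1 and 0.263 in Pax5 cells. The T-cell marker list had 13 genes on the array. Its mean log2 level was 3.88 to 4.0 in Control, 3.89 to 3.9 in EBF1 and 3.95 to 4.0 in Pax5 cells, and 0 of its 10 tested genes passed in any of the 3 comparisons. The B-lineage progenitor list of 11 genes had means of 5.53 to 5.58, 6.8 to 6.82 and 5.98 to 6.11. The OP9 stromal list of 9 genes lay at 4.43 in both Control arrays, 4.48 to 4.61 in EBF1 and 4.5 to 4.69 in Pax5 cells, and the part of stromal RNA in the results below was not tested. Of 4 erythroid markers 0 passed in any of the 3 comparisons.

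Cd3d and Cd3g lay below the filter limit on most arrays, Cd3e and Cd247 above it, and none of the 3 tested chains passed in any comparison. Cd3g (probe set 10593015, chromosome 9) read 3.03 and 2.69 on the Control arrays, 2.68 and 2.68 on the EBF1 arrays, and 2.66 and 2.77 on the Pax5 arrays. It lay between the 22.1 and the 31.1 percentile and was above the 30th percentile on 1 array, so it was not among the genes tested. In the fit with no filter its log2 difference was -0.18 for EBF1 against Control (adjusted p = 0.63) and -0.15 for Pax5 against Control (adjusted p = 0.58). Cd3d (probe set 10584821, chromosome 9) read 2.70 and 2.57 in Control, 3.11 and 2.58 in EBF1, and 3.01 and 2.52 in Pax5 cells. It was tested because 1 EBF1 array and 1 Pax5 array passed the filter, and the other array of each of these groups read close to the lower Control array. All 3 groups overlapped for Cd3d. Its 95% interval ran from -0.33 to 0.74 for EBF1 against Control, so the sign of any change was not determined with this number of arrays.

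Cd3e, the chain whose loss stops assembly of the whole complex in mice, lay between the 42.9 and 46.1 percentile. Its probe set (10593024, chromosome 9) read 3.65 and 3.69 in Control, 3.84 and 3.76 in EBF1, and 3.72 and 3.67 in Pax5 cells. Both EBF1 arrays lay above the other 4, by little: the log2 difference from Control was 0.13 (SE 0.08, 95% interval -0.06 to 0.31, adjusted p = 0.43), and that of Pax5 was 0.02 (adjusted p = 0.88). Cd247 (probe set 10351353, chromosome 1), which also serves Fc and natural killer receptors, read 4.55 and 4.35 in Control, 4.66 and 4.55 in EBF1, and 4.55 and 4.40 in Pax5 cells. Its groups overlapped, with log2 differences of 0.15 for EBF1 (adjusted p = 0.52) and 0.03 for Pax5 (adjusted p = 0.91) against Control. The zeta chain probe set kept to a narrow band, between the 52.5 and the 55.2 percentile.

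**Figure D1:**
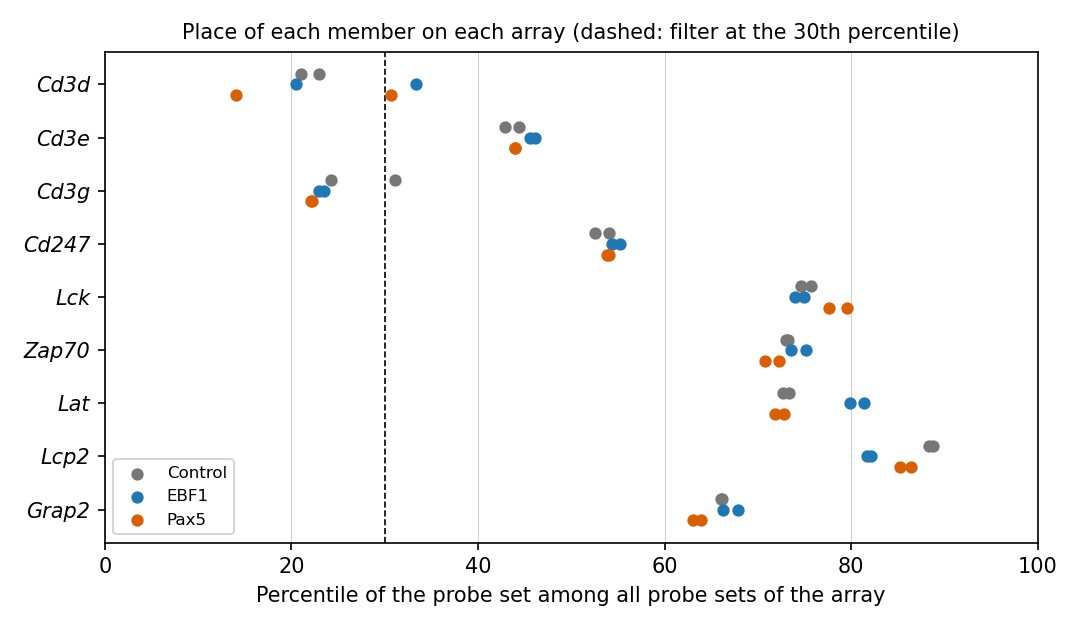
Percentile of each member's probe set among all probe sets of the same array (horizontal axis, 0 to 100), with 2 points per group for the 2 arrays and a dashed line at the 30th percentile used as the filter. Cd3d and Cd3g lie mostly below the line, from 14 to 33.4, and the kinases and adaptors from 63.1 to 88.8.

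Cd3g, Cd3d and Cd3e lie side by side on mouse chromosome 9, and the 4 genes on each side in the RefSeq gene order were read with them. On the Cd3g side, Ube4a, Atp5l, Kmt2a and Ttc36 lay between the 48.9 and the 98.1 percentile. Ube4a, an E4 ubiquitin ligase gene, had means of 7.2, 7.17 and 7.29 in Control, EBF1 and Pax5 cells, and Kmt2a, the H3K4 methyltransferase gene, 7.49, 7.30 and 7.56. Beyond Cd3e, Mpzl2, Mpzl3, Jaml and Scn2b lay between the 13.4 and the 36.1 percentile. Mpzl2, Jaml and Scn2b did not pass the filter and were not tested. None of the other 5 passed in any of the 3 comparisons, the smallest adjusted p being 0.1, for Kmt2a and Ttc36 in EBF1 against Pax5.

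The kinases Lck and Zap70 did not pass against Control with either factor. Lck (probe set 10516620, chromosome 4) read 6.82 and 6.72 in Control, 6.79 and 6.69 in EBF1, and 6.96 and 7.12 in Pax5 cells, between the 74.0 and 79.6 percentile. Both Pax5 arrays lay above the other 4. The log2 difference of Pax5 from Control was 0.28 (SE 0.09, 95% interval 0.05 to 0.50), which did not pass over all genes (adjusted p = 0.18), and that of EBF1 was -0.03 (adjusted p = 0.92). Zap70 (probe set 10345509, chromosome 1) ran the other way between the factors. It read 6.56 and 6.58 in Control, 6.65 and 6.80 in EBF1, and 6.5 and 6.30 in Pax5 cells, with the 3 groups apart in the order EBF1, Control, Pax5. Against Control the log2 differences were 0.16 for EBF1 (adjusted p = 0.47) and -0.17 for Pax5 (adjusted p = 0.37).

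Set directly against each other, EBF1 and Pax5 cells differed for both kinases by amounts that stayed short of the threshold. The log2 difference, EBF1 minus Pax5, was 0.33 for Zap70 (95% interval 0.09 to 0.57, adjusted p = 0.082) and -0.31 for Lck (95% interval -0.53 to -0.08, adjusted p = 0.084). With arrays left out in turn, the difference ranged from 0.23 to 0.43 for Zap70 and from -0.39 to -0.23 for Lck. Both kinases passed with a filter at the 50th percentile (adjusted p = 0.047 for each) and with the trend and robust options of limma (0.035 and 0.032). These settings also raised the number of all genes called, from 2128 to 2855 and 3369. Neither kinase passed with the replicate block (0.12 for each), the 4 arrays of these groups alone (0.16 and 0.15) or the authors' p-values after adjustment (0.19 and 0.17).

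**Figure D2:**
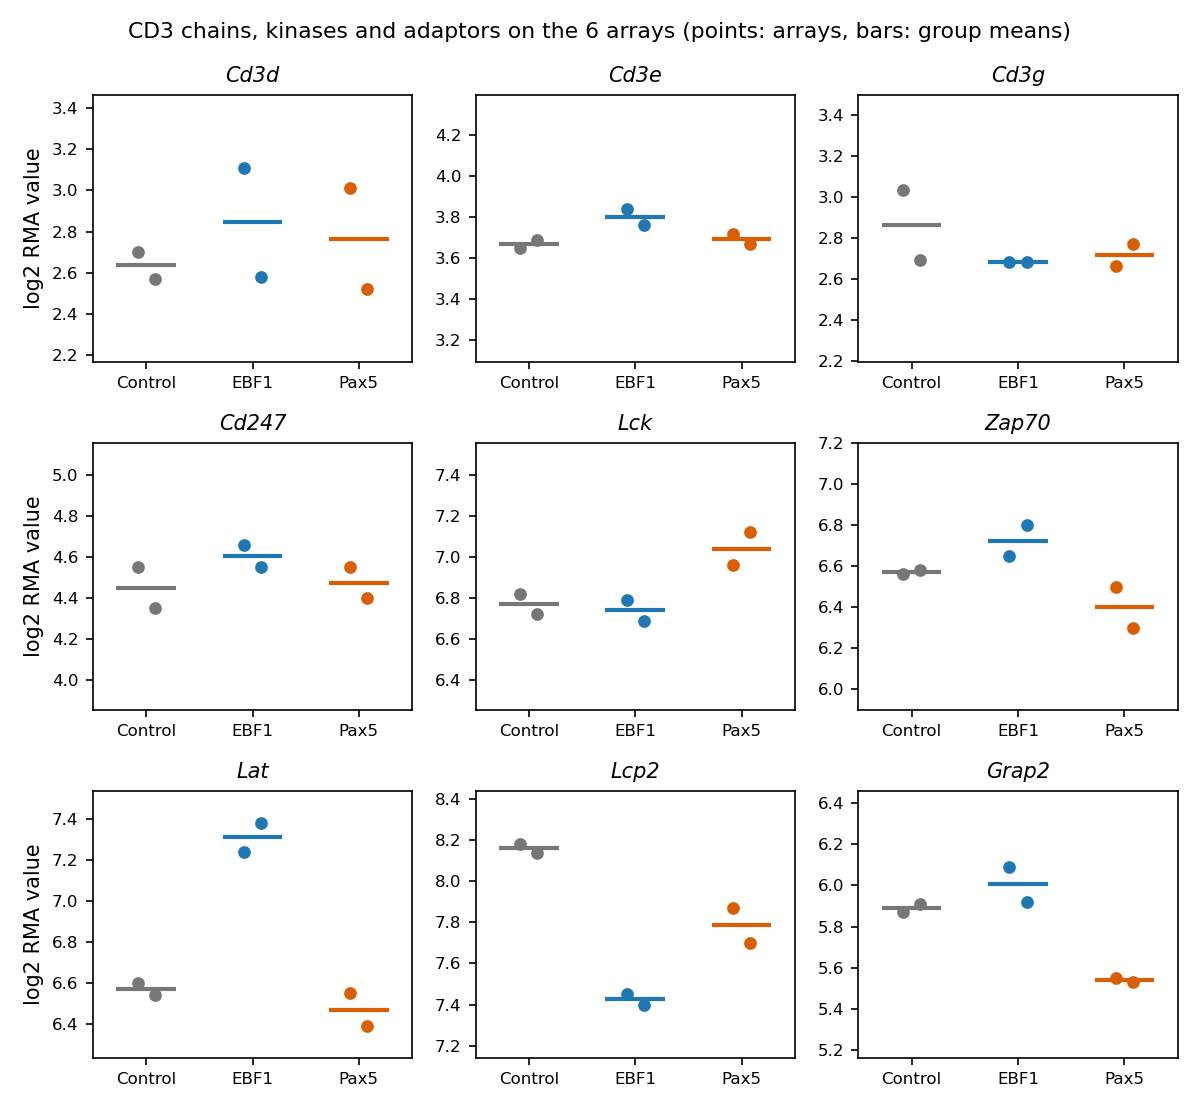
Log2 RMA value (vertical axis, each panel with its own range) of the 9 genes on the 6 arrays, with points for arrays and bars for group means. Lat stands apart on the EBF1 arrays (7.24 and 7.38), Lcp2 is highest in Control (8.18 and 8.14) and Grap2 lowest in Pax5 cells (5.55 and 5.53).

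Among the members, calls fell on the 3 adaptor genes alone. This divide rests on the threshold: between the factors Zap70 (adjusted p = 0.082) and Lck (0.084) lay close to Lcp2 (0.044). Lat rose and Lcp2 fell with EBF1, and Grap2 stood higher in EBF1 than in Pax5 cells. Because these 3 genes carry the calls, the 250 bases before the start of each are shown from the RefSeq promoter table (GRCm38.p6), 5′ to 3′ along the gene. Capitals mark every match to CANNTG, a general E-box form not particular to E proteins, and to CCCNNGGG, the core of the palindrome that EBF1 recognises. Both motifs read the same on either strand, and no matches overlapped here.
Lat (chr7:126369569-126369818, minus strand): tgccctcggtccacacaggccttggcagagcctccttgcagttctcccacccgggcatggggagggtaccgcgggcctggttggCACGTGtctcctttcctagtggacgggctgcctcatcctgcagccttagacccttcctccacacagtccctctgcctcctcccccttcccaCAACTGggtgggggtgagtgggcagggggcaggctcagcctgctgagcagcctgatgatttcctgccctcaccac
Lcp2 (chr11:34046678-34046927, plus strand): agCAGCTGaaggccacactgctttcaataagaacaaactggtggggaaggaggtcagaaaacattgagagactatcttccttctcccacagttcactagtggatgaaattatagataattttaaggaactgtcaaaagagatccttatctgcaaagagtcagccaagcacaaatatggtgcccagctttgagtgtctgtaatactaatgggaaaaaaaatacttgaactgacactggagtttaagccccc
Grap2 (chr15:80623233-80623482, plus strand): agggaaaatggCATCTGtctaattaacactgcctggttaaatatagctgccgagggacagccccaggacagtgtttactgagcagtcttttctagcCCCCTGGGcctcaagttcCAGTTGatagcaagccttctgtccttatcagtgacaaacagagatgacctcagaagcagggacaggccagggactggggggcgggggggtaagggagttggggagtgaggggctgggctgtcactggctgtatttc
The Lat window held the E-boxes CACGTG and CAACTG, the Lcp2 window CAGCTG, and the Grap2 window CATCTG and CAGTTG beside the EBF1 core match CCCCTGGG. All 9 members matched the table, with 12 windows in all, of which 11 held CANNTG and 2 held CCCNNGGG (that of Grap2 and 1 of the 3 windows of Zap70). Among all 32851 windows of this length, 66.2% held CANNTG and 11.8% held CCCNNGGG. A match is a description of letters, and windows without one say nothing of binding.

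Lat encodes the membrane adaptor that ZAP70 phosphorylates and that gathers phospholipase C gamma, GADS and GRB2. Its probe set (10567825, chromosome 7) read 6.60 and 6.54 in Control, 7.24 and 7.38 in EBF1, and 6.55 and 6.39 in Pax5 cells. The EBF1 arrays lay above all 4 others and did not overlap them, while Control and Pax5 overlapped. Lat rose 1.67-fold with EBF1 (log2 difference 0.74, SE 0.09, adjusted p = 0.011), and stood 1.79-fold higher in EBF1 than in Pax5 cells (0.84, SE 0.09, adjusted p = 0.0041). Against Control, Pax5 cells differed by -0.10 (95% interval -0.33 to 0.13, adjusted p = 0.59). Leaving out any 1 Control or EBF1 array kept the difference between 0.67 and 0.81 and ended the call against Control (leaving out Control 1 gave an adjusted p of 0.098, Control 2 0.12, EBF1 1 0.079 and EBF1 2 0.11). The call against Pax5 passed whichever array was left out (highest adjusted p = 0.046). More RNA per cell and more cells with the gene on cannot be told apart in such bulk samples, here or below.

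Lcp2 encodes SLP-76, the cytosolic scaffold that works with LAT and that myeloid cells, platelets and natural killer cells use as well. Its probe set (10375145, chromosome 11), between the 81.7 and 88.8 percentile, read 8.18 and 8.14 in Control, 7.45 and 7.4 in EBF1, and 7.87 and 7.70 in Pax5 cells. No 2 groups overlapped, with Control highest, Pax5 between and EBF1 lowest. Lcp2 fell 1.67-fold with EBF1 (log2 difference -0.74, SE 0.09, adjusted p = 0.0088), and the call ended without Control 1 (adjusted p = 0.1), Control 2 (0.094), EBF1 1 (0.086) or EBF1 2 (0.098), at differences of -0.76 to -0.71. The mean of 8 myeloid markers had the group order of Lcp2 (Control 4.1 to 4.23, EBF1 3.86 to 3.9, Pax5 3.97 to 4.07). So had the mean of 5 dendritic cell markers (7.56 to 7.62, 7.3 to 7.43 and 7.46 to 7.47). Single markers did not all keep this order, and none of the 5 dendritic cell markers did. Mpo (means of 7.4, 7.05 and 6.36 in Control, EBF1 and Pax5) and Siglech (9.09, 8.22 and 8.02) were lowest in Pax5 cells. So was Flt3 (10.04, 9.72 and 9.54). Bst2 (9.1, 9.26 and 8.8) was highest in EBF1 cells. Itgax (3.81, 3.82 and 4.56) and Cd74 (5.91, 5.81 and 6.4) were highest in Pax5 cells. Itgam (6.29, 5.23 and 6.33) was lowest in EBF1 cells, with Pax5 close to Control. The mean of 10 natural killer and innate lymphoid markers was 3.93 to 3.95 in Control, 3.74 to 3.8 in EBF1 and 3.94 to 4.03 in Pax5 cells. With EBF1, 2 of 5 tested myeloid, 1 of 5 dendritic cell and 1 of 6 natural killer markers (Il2rb, -0.78, adjusted p = 0.0069) fell, beside 2.46% of all genes tested. With Pax5, 1 of 5 myeloid (Mpo) and 2 of 5 dendritic cell markers (Siglech and Flt3) fell, beside 2.06% of all genes. Flt3 is also on the B-lineage progenitor list. The dendritic cell marker Itgax rose with Pax5, beside 2.16% of all genes. The part of these cell types in the fall of Lcp2 was not tested. For Pax5 against Control the difference was -0.38 (SE 0.09, 95% interval -0.59 to -0.17), which did not pass (adjusted p = 0.076) but did without Pax5 1 (-0.46, adjusted p = 0.025), with a filter at the 50th percentile (0.038) and with trend and robust (0.0071). EBF1 cells stood lower than Pax5 cells by -0.36 (SE 0.09, adjusted p = 0.044). That call is narrow: it was lost when no filter was used (adjusted p = 0.071), with the 4 arrays of these groups alone (0.1), and without any array but Pax5 2 (0.06 to 0.21).

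Grap2 encodes GADS, which binds phosphorylated LAT with its SH2 domain and SLP-76 with an SH3 domain. It read 5.87 and 5.91 in Control, 6.09 and 5.92 in EBF1, and 5.55 and 5.53 in Pax5 cells (probe set 10425410, chromosome 15). The Pax5 arrays lay below all others, and the gap between EBF1 and Control was 0.01 at its narrowest. Pax5 cells differed from Control by -0.35 (SE 0.09, 95% interval -0.56 to -0.14, adjusted p = 0.094) and EBF1 cells by 0.11 (adjusted p = 0.57). Between the factors the difference passed, with EBF1 1.38-fold above Pax5 (0.46, SE 0.09, adjusted p = 0.021). It did not pass with the 4 arrays of these groups alone (adjusted p = 0.062), nor without Control 1 or Control 2 (0.062 each), EBF1 1 (0.13), EBF1 2 (0.064) or Pax5 2 (0.051). For Pax5 against Control, the filter at the 50th percentile gave an adjusted p of 0.049.

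**Figure D3:**
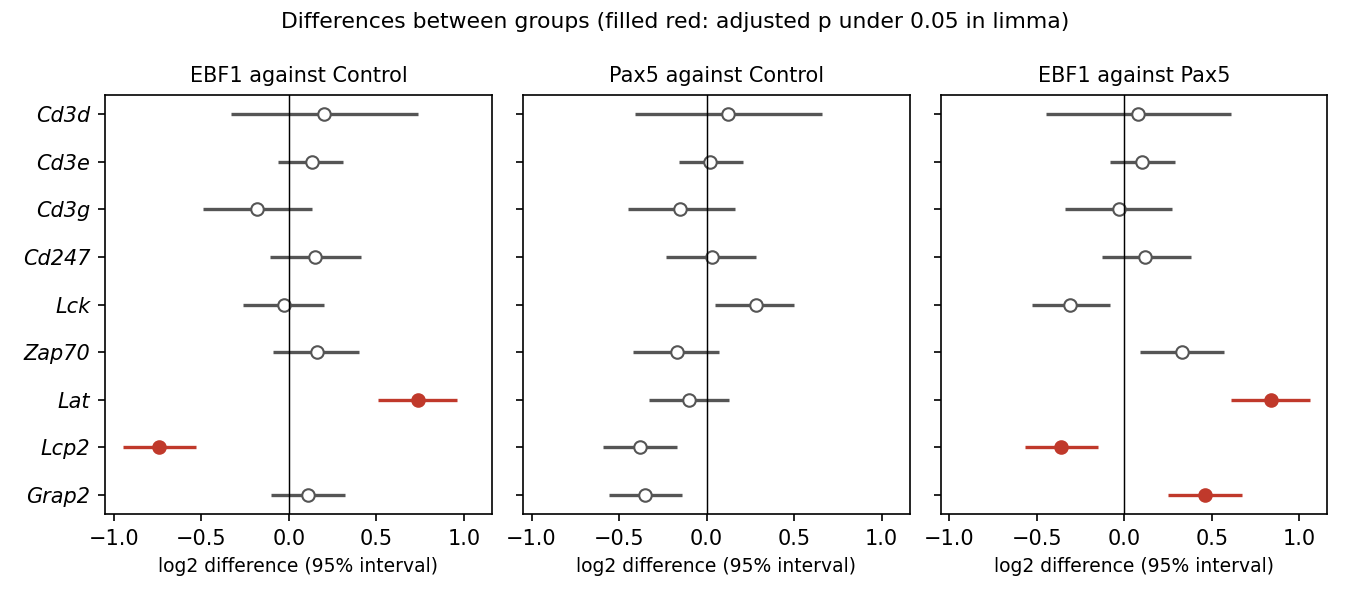
Log2 difference of group means (horizontal axis) with its 95% interval for the 9 genes in the 3 comparisons, filled red where the adjusted p from limma is under 0.05 (Cd3g is from the fit with no filter). Lat and Lcp2 are called in opposite directions for EBF1 against Control, at 0.74 and -0.74, and 0 genes are called for Pax5 against Control.

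Of the 8 tested members, 1 rose and 1 fell with EBF1, beside 5.6% of all genes tested that were called in that comparison (3.14% higher, 2.46% lower). With Pax5 0 were called by limma, beside 4.22% of all genes (2.16% higher, 2.06% lower). At an unadjusted p under 0.05 there were 3 of the 8 (Lck, Lcp2 and Grap2), beside 3188 of the 15295 genes, and the trend and robust options called 1 and the filter at the 50th percentile 2. Between EBF1 and Pax5, 3 of 8 were called, Lat and Grap2 higher and Lcp2 lower in EBF1 cells, beside 13.9% of all genes (8.71% higher, 5.2% lower). The median difference of the 8 members was 0.14, -0.04 and 0.11 in these comparisons, beside 0.01, -0.04 and 0.04 over all genes tested. Groups of 2 arrays often do not overlap: this held for 5, 4 and 6 of the 8 members, and for 56.0%, 51.4% and 56.4% of all genes. Both comparisons with Control use the same Control arrays, so the values stand side by side and are not independent of each other. For the called members, the authors' deposited table gives ratios of 1.668 for Lat (p = 0.0035) and 0.6 for Lcp2 (p = 0.002) with EBF1 against Control, unadjusted.

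The genes on either side of Lat, Lcp2 and Grap2 were read after the values of these members were known. Of the 4 neighbours of Lat, the NFAT-interacting gene Nfatc2ip passed between EBF1 and Pax5 (0.31, adjusted p = 0.047), and Spns1, next to Lat, had a difference of 0.19 for EBF1 against Control (adjusted p = 0.75). Sbk1 and Xpo6 on the other side had 0.25 (adjusted p = 0.15) and 0.11 (adjusted p = 0.49). Beside Lcp2, Kcnmb1 and Foxi1 lay at or below the 48.4 percentile. Dock2, a haematopoietic guanine nucleotide exchange factor gene near Lcp2, lay above the 90th with a difference of -0.03 for EBF1 against Control (adjusted p = 0.9). Kcnmb1 and Kcnip1 beside Lcp2 and Cacna1i beside Grap2 were not tested, and none of the other 5 neighbours of these genes (Foxi1, Dock2, Enthd1, Fam83f and Tnrc6b) passed in any of the 3 comparisons.

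Genes whose 6 values, centred on their own mean, lay closest to those of a member were listed for members with a range over 0.5. For Lat they were St6galnac4, a sialyltransferase gene, with a root mean square difference of 0.031 on the log2 scale over 6 arrays, then Mirt1 (0.037) and the kinase gene Lrrk1 (0.059). St6galnac4 read 6.34 and 6.19 in Control, 6.92 and 7.02 in EBF1, and 6.23 and 6.05 in Pax5 cells. Lcp2 was matched most closely by Parp8 (0.047), the integrin gene Itgb7 (0.051) and the urea transporter gene Slc14a1 (0.058), all highest in Control and lowest in EBF1 cells. The closest to Grap2 were Rdh14 (0.016), Dpy19l1 (0.027) and Exosc7 (0.035), and to Zap70 Acat1 (0.023), Isy1 (0.026) and Brd3 (0.027). Cd3d was closest to Col28a1 (0.045), Tmem30b (0.06) and Endou (0.069), each of which was highest on the first EBF1 and first Pax5 arrays, as Cd3d was.

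The wider pathway was read from a list of 70 other genes of T-cell receptor signalling, of which 62 were tested. With EBF1, 4 rose and 4 fell (12.9% called, beside 5.6% of all genes), with a median difference of -0.06. The falls were led by Tespa1, which acts in thymocyte receptor signalling, and Txk, a TEC-family kinase gene. Tespa1 read 8.11 and 8.22 in Control, 6.96 and 6.92 in EBF1, and 8.13 and 8.01 in Pax5 cells, a log2 difference of -1.22 with EBF1 (SE 0.08, adjusted p = 0.0022). Txk went from 8.15 and 8.13 in Control to 6.98 and 6.94 in EBF1 cells (-1.18, SE 0.07, adjusted p = 0.0017), and read 7.92 and 8.0 in Pax5 cells. For both genes the EBF1 arrays lay below every other array, and these 2 falls were called whichever array was left out. Cd27 (-1.04), a costimulatory receptor gene of the TNF receptor family, and Csk (-0.56) fell as well, and Sit1 (1.06), Lax1 (0.79), the IP3 receptor gene Itpr3 (0.74) and Nfatc3 (0.46) rose. Each of these 6 calls ended without at least 1 array (highest adjusted p from 0.054 for Sit1 to 0.21 for Nfatc3).

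Pax5 raised 5 and lowered 0 of the 62 genes (8.06% called, beside 4.22% of all genes; median -0.02). Pag1, the membrane adaptor that brings CSK to Src-family kinases, read 6.01 and 5.99 in Control, 5.77 and 5.77 in EBF1, and 7.58 and 7.46 in Pax5 cells. Pag1 rose by 1.52 with Pax5 (SE 0.08, adjusted p = 0.00094) and was called whichever array was left out. Ptpn22, a phosphatase gene whose product acts with CSK on LCK and ZAP70, rose by 1.08 (SE 0.09, adjusted p = 0.0038), from 6.62 and 6.60 to 7.66 and 7.73, a call that ended without at least 1 array (adjusted p up to 0.062). Lax1 (0.71), Cd7 (0.69) and Ubash3a (0.43), which encode a LAT-like adaptor, a surface receptor and a regulator of ZAP70-family kinases, also rose. Their calls ended without at least 1 array, with adjusted p up to 0.16, 0.24 and 0.30.

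**Figure D4:**
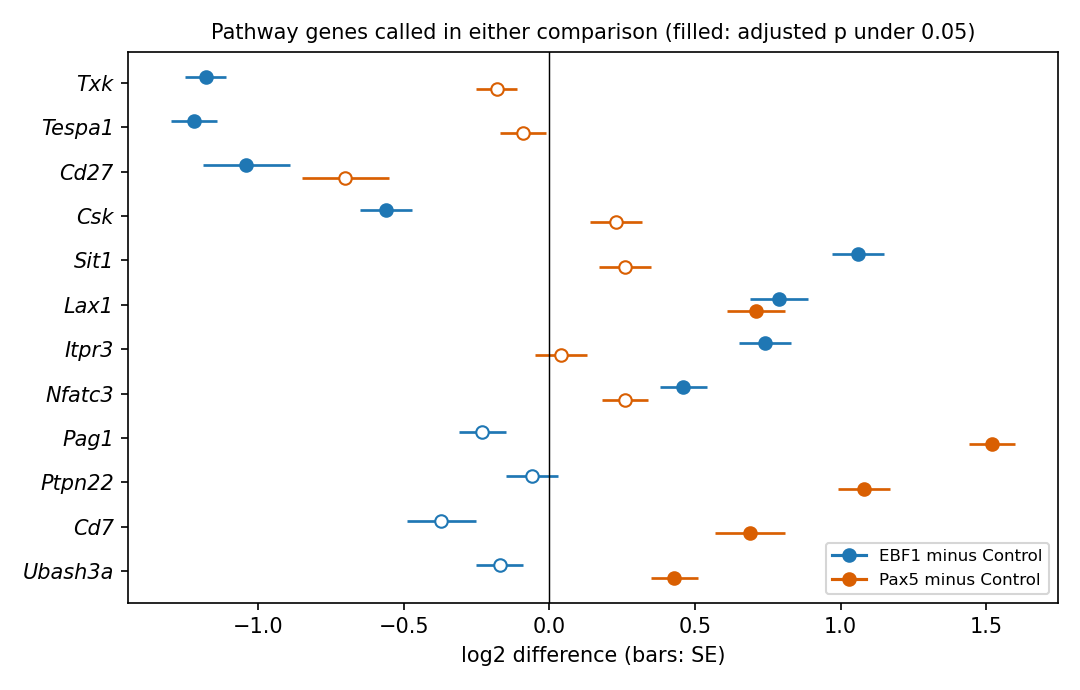
Log2 difference from Control (horizontal axis, bars are SE) with EBF1 (blue) and Pax5 (orange) for the 12 pathway genes called in either comparison, filled where the adjusted p is under 0.05. Txk and Tespa1 lie at -1.18 and -1.22 with EBF1 and at -0.18 and -0.09 with Pax5, and Pag1 lies at 1.52 with Pax5 and -0.23 with EBF1.

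Between the factors, 16 of the 62 pathway genes were called (25.8%, beside 13.9% of all genes), 6 higher and 10 lower in EBF1 cells. Lower in EBF1 than in Pax5 cells were Pag1 (-1.75, adjusted p = 0.00026), Ptpn22 (-1.15, adjusted p = 0.0013) and Csk (-0.79, adjusted p = 0.0046), which encodes the kinase that restrains Src-family kinases such as LCK. Csk read 7.96 and 7.94 in Control, 7.48 and 7.30 in EBF1, and 8.24 and 8.13 in Pax5 cells. Tespa1 (-1.13), Cd7 (-1.06) and Txk (-1.0) were lower in EBF1 cells too and so was Stk4 (-0.71). Those higher in EBF1 cells included Sit1 (0.79), Itpr3 (0.70), the LCK-binding adaptor gene Sh2d2a (0.62), the phosphatase gene Ptpn6 (0.50) and Dok2 (0.39). Of the 16, 7 were called whichever array was left out, namely Txk, Csk, Ptpn22, Pag1, Tespa1, Sit1 and Cd7. By part of the pathway, 13 of 28 proximal genes, 2 of 22 genes below the adaptors and 1 of 12 receptors and coreceptors were called.

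Some pathway genes were not among those tested. Rasgrp1 (19.7 to 28.7 percentile), Prkcq (7.8 to 18.4), Fyb (9.8 to 25.2), Themis (10.0 to 16.3) and Trat1 (7.5 to 19.1) did not pass the filter. The coreceptor gene Cd4 lay between the 38.4 and 42.9 percentile. Of genes shared with other blood cells, Vav1 lay at 83.0 to 85.9, Plcg1 at 72.6 to 76.7 and Ptprc at 95.3 to 96.2, and Vav1, Plcg1, Ptprc and Cd4 passed in 0 of the 3 comparisons.

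The related parts used by B-lineage and myeloid cells were set beside the members. Blnk, the B-lineage counterpart of Lcp2, read 2.73 and 2.80 in Control, 2.90 and 2.99 in EBF1, and 5.97 and 6.20 in Pax5 cells. Blnk rose with Pax5 (3.32, SE 0.10, adjusted p = 0.00013) from Control levels below the 30th percentile. It would not have been tested without the Pax5 arrays, on which it was high. With EBF1, where Lcp2 fell, Blnk differed by 0.18 (adjusted p = 0.39). Lat2, a LAT-like adaptor gene of B and myeloid cells, read 9.56 and 9.54 in Control, 9.34 and 9.27 in EBF1, and 9.99 and 9.89 in Pax5 cells. Its order of groups was the reverse of that of Lat between the factors, with EBF1 minus Pax5 at -0.63 (adjusted p = 0.006) for Lat2 and 0.84 for Lat. Syk, the relative of Zap70, read 7.64 and 7.61 in Control, 7.67 and 7.65 in EBF1, and 7.95 and 7.74 in Pax5 cells, with adjusted p of 0.9, 0.24 and 0.24 in the 3 comparisons.

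Among ITAM-bearing chains, Fcer1g, the Fc receptor gamma chain and the closest relative of Cd247, fell with Pax5 from 10.79 and 10.76 to 10.00 and 9.97 (-0.79, SE 0.08, adjusted p = 0.0057). Leaving out at least 1 array ended that call (adjusted p up to 0.081). Tyrobp, which encodes DAP12, held at 10.64 to 10.75 on all arrays and passed in 0 of the 3 comparisons. Cd79b, the B-cell receptor chain, rose by 5.41 with EBF1 (adjusted p = 0.0003), while its partner Cd79a had a difference of 0.07 (adjusted p = 0.92). Of the 15 B-lineage counterparts, 2 rose and 2 fell with EBF1 (26.7% called, beside 5.6% of all genes), and 3 rose and 1 fell with Pax5 (26.7%, beside 4.22%). Against Control, 1 of the 4 calls in each comparison held whichever array was left out, Cd79b with EBF1 and Blnk with Pax5. The replicate block ended 2 of the 4 in each, those of Lyn and Plcg2 with EBF1 and of Btk and Dapp1 with Pax5. Between the factors 7 differed (46.7%, beside 13.9% of all genes), of which 3, Blnk and Cd79b among them, were called whichever array was left out. Lyn, the Src-family kinase gene of B cells, had -0.65 for EBF1 minus Pax5 (adjusted p = 0.004), and Lck -0.31 (adjusted p = 0.084). Blk had 0.46 (adjusted p = 0.059) and Fyn -0.15 (adjusted p = 0.28).

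**Figure D5:**
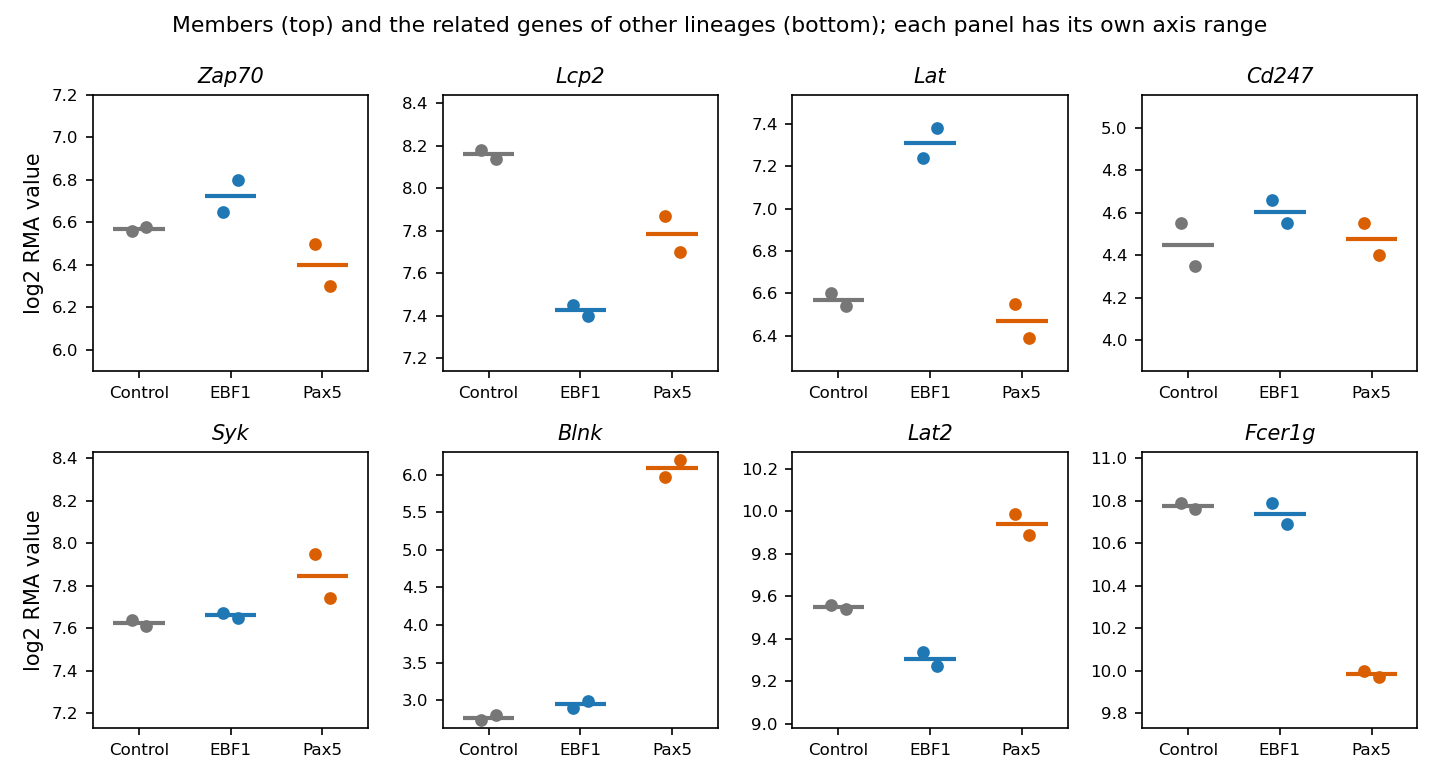
Log2 RMA value (vertical axis, each panel with its own range) on the 6 arrays for Zap70, Lcp2, Lat and Cd247 (top) and for Syk, Blnk, Lat2 and Fcer1g (bottom), with points for arrays and bars for group means. Blnk stands at 5.97 and 6.20 on the Pax5 arrays and under 3 on the others, and Lat is highest on the EBF1 arrays where Lat2 is lowest (9.34 and 9.27).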

How the data were processed

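RNA from 6 samples was profiled on Affymetrix arrays after amplification of 50 ng of total RNA, per the labels' protocols. RMA and Partek 6.5 were the authors' tools (per the submitters' processing notes), and the deposited values are log2 expression values per probe set. The sources used here do not give the RMA options or the build, so sequence coordinates are those of RefSeq (GRCm38.p6). Another deposited table holds equal log2 values (largest difference 0) and adds, per the file headers, the authors' p-values and the ratios of group means.

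Of 28350 probe sets, 22969 carried 1 gene symbol, 2285 several and 3096 none, and the annotation text is cut short in places, so some may carry more. Of those with 1 symbol, 22114 matched a RefSeq gene. The probe set with the highest mean stood for a gene, and genes above the 30th percentile on at least 2 arrays were tested (15295). limma 3.58.1 in R 4.3.3 (lmFit, eBayes, two-sided) gave each difference, SE and adjusted p, with 3 residual and 3.18 prior degrees of freedom; it was tested on simulated data. RMA gives no detection call, and the number of arrays limits precision.

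The members, lists and tests were chosen with earlier results of these data known. Genes of a list were named when called, at most the 6 largest in each direction; genes named without a call were chosen after their values were seen. Arrays numbered alike did not deviate together (r across 15295 genes of 0.009, 0.007 and -0.012). Alternatives were the 4 arrays compared, a replicate block, quantile normalization, centring, other filters, trend and robust, other treatments of probe sets, the authors' p-values, and leaving out each array. Sla2 of the pathway list and Hba-a1 of the erythroid markers were not matched to a single-symbol probe set. Some genes of the lists are counted but not reported here by name.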

Additional observations from a re-analysis of the deposited data

How the results depend on the processing

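Of 50 values of the called members under alternatives that keep all arrays or drop a whole group, 40 stayed called and 10 did not, and of 184 for members not called, 7 became called (Lcp2 and Grap2 with Pax5, Zap70 and Lck between the factors, all under the 50th percentile filter, the first and the last 2 also under trend and robust). None of these changed sign. Adjusting the authors' p-values ended each call: Lat (0.74, adjusted p = 0.09) and Lcp2 (-0.74, 0.076) for EBF1 against Control, and Lat (0.84, 0.051), Lcp2 (-0.36, 0.11) and Grap2 (0.46, 0.08) for EBF1 against Pax5. The Lcp2 difference between the factors (-0.36) also missed the threshold with the 4 arrays alone (adjusted p = 0.1), the replicate block (0.056), no filter (0.071) and all probe sets tested (0.087), and Grap2 (0.46) with the 4 arrays alone (0.062). The replicate block ended no other member's call.

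With arrays left out, 12 of 30 values of called members stayed called, and differences ranged from 0.67 to 0.81 (Lat) and -0.76 to -0.71 (Lcp2) for EBF1 against Control, and from 0.76 to 0.91 (Lat), -0.44 to -0.28 (Lcp2) and 0.37 to 0.55 (Grap2) between the factors. Uncalled members crossed 0: Cd3d (-0.06 to 0.47) and Lck (-0.08 to 0.02) with EBF1, Cd3d (-0.12 to 0.37) and Cd247 (-0.08 to 0.13) with Pax5, and Cd3d (-0.19 to 0.35) between the factors. Where 1 array is left in a group, it is assumed to vary like the other groups. Without an array of the group not compared, the fit equalled that of the 4 arrays compared. Part of these values thus repeat that alternative.

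Counts moved more than sizes. Against the 2, 0 and 3 members called, the authors' p-values gave 0, 0 and 0, arrays left out 0 to 2, 0 to 1 and 1 to 4, the 4 arrays alone 1 between the factors, the 50th percentile filter 2 with Pax5 and 5 between the factors, and trend and robust 1 and 5. The 857 genes called with EBF1 became 1424 with the 4 arrays alone, 565 with the replicate block, 1324 with the 50th percentile filter, 1786 with trend and robust, 558 of all probe sets, 197 by the authors' p-values and 103 to 1424 without an array. The 646 with Pax5 became 240, 412, 1000 and 1643 under the first 4 of these, 100 by the authors' p-values and 60 to 2407 without an array. The 2128 between the factors became 1093 with the 4 arrays alone, 3369 with trend and robust, 712 by the authors' p-values and 410 to 3884 without an array. For the pathway list, the 8 called with EBF1 became 13 with the 4 arrays alone and with the 50th percentile filter, 20 with trend and robust, 2 by the authors' p-values and 2 to 13 without an array. The 5 with Pax5 became 2 with the 4 arrays alone, 3 with the replicate block and with all probe sets, 9 with the 50th percentile filter, 10 with trend and robust, 1 by the authors' p-values and 1 to 14 without an array, and the 16 between the factors 9 by the authors' p-values and 7 to 25 without an array. The replicate block ended the pathway calls of Nfatc3 with EBF1 and of Ubash3a and Cd7 with Pax5. Causes were not tested.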

Other observations

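Regulators known to act on T-lineage genes moved in several directions. Of 20 tested, Hes1 (1.06, adjusted p = 0.0045) and Notch1 (0.93, adjusted p = 0.01) rose and Gata3 (-1.19, adjusted p = 0.0089) and Runx1 (-0.58, adjusted p = 0.012) fell with EBF1, 20.0% called beside 5.6% of all genes. With Pax5, Ets1 rose (1.44, adjusted p = 0.0018) and Notch1 (-0.97, adjusted p = 0.01) and Tox (-0.84, adjusted p = 0.0086) fell, 15.0% called beside 4.22% of all genes. Notch1 read 7.06 and 7.02 in Control, 8.04 and 7.89 in EBF1, and 6.20 and 5.93 in Pax5 cells, so that Control lay between the factors. Between EBF1 and Pax5, 9 of the 20 were called (45.0%, beside 13.9% of all genes). Notch1, Hes1, Tox, Id2 and Tcf12 were higher and Gata3, Ets1, Runx1 and Myb lower in EBF1 cells. Of these 9, Notch1, Gata3, Runx1 and Ets1 were called whichever array was left out. Against Control, the Ets1 call alone of these held in that way. Tcf7, a T-lineage factor, had 0.33 with EBF1 (adjusted p = 0.058), and Bcl11b, which commits cells to the T lineage, lay between the 41.6 and 43.6 percentile with adjusted p of 0.81, 0.68 and 0.92 in the 3 comparisons.

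Of the natural killer and innate lymphoid markers, 6 of 10 were tested. Il2rb, which encodes a receptor chain for IL-2 and IL-15, fell with EBF1 (-0.78, adjusted p = 0.0069). Klrb1c, the NK1.1 gene, was lower in EBF1 than in Pax5 cells (-1.41, SE 0.27, adjusted p = 0.023). The Pax5 arrays were unlike, at 6.45 and 5.54, beside 5.59 and 5.51 in Control and 4.65 and 4.53 in EBF1 cells. Its difference for EBF1 against Control did not pass (-0.96, adjusted p = 0.11). Ncr1 and Klrk1, whose products signal through ITAM and related adaptors, lay below the filter.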
